A study of Mus musculus with 12 samples.

Results

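The Trim genes were taken as the protein-coding genes of the deposited count table whose mouse symbol is Trim followed by a number and at most 1 letter from a to d. The rule found 67 such genes among 39017 gene identifiers, and 44 of the 67 had enough counts to be tested. The 12 libraries came from the spinal cord of C57BL/6 females in which EAE (experimental autoimmune encephalomyelitis, the mouse model of multiple sclerosis) had been induced. Of these, 6 libraries carried the label Kdm6a cKO (replicates 1 to 6, written cKO 1 to cKO 6) and 6 the label WT (replicates 7 to 12, written WT 7 to WT 12). Kdm6a is an X-linked histone demethylase, and cKO stands for its conditional knockout. All 12 libraries were described as microglial RNA of Tmem119-Cre:RiboTag mice. RiboTag is a transgene whose ribosomal protein gains an epitope tag after Cre recombination, so that messages under translation can be pulled down from Cre-expressing cells, here cells that use the microglial Tmem119 promoter. The labels name the molecule as total RNA and give neither the age of the mice, the EAE stage nor the number of mice per library.

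TRIM proteins share a tripartite motif, a RING finger followed by B-box zinc fingers and a coiled coil, and most are E3 ubiquitin ligases: the RING finger recruits a ubiquitin-loaded E2 enzyme and a C-terminal domain picks the target. That C-terminal domain sorts the family, with a PRY-SPRY domain in the antiviral members, NHL repeats or a microtubule-binding COS box in members best known from neurons, and a PHD finger with a bromodomain in members that act on chromatin. In macrophages and microglia the family is known for tuning the signals from cytosolic RNA and DNA sensors, for NF-kB signalling and for blocking retroviruses, and many antiviral members are induced by interferon.

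The libraries held 19040115 to 25009657 counts in cKO and 20386143 to 26296071 counts in WT, so that 3 counts corresponded to 0.109 to 0.157 CPM (the count scaled to a common library size, with TMM factors). The 11 microglia markers summed to between 9260 CPM (cKO 5) and 20200 CPM (cKO 4) in cKO and between 11700 and 13500 CPM in WT. Among the lists of other cell types, the 14 neuron markers summed to 225 to 843 CPM in cKO and 210 to 330 CPM in WT, with cKO 1, cKO 2 and cKO 4 above every WT library. Kdm6a itself had 1.59 to 4.50 CPM in cKO and 3.35 to 6.19 CPM in WT. Its difference did not pass the test (log2 fold change −0.70 ± 0.25, adjusted p = 0.117, edgeR's quasi-likelihood test), and cKO 2, with 4.50 CPM, lay inside the WT range. It was −1.01 ± 0.25 without cKO 1 and cKO 2 together (adjusted p = 0.0519), and −1.25 ± 0.19 with an adjusted p of 0.00102 once markers of other spinal cord cells were in the model. In bulk libraries of this kind, fewer cells of a type and less RNA per cell cannot be told apart.

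Together the Trim genes made up 1489 ± 78.8 CPM in cKO and 1456 ± 18.7 CPM in WT (SD, n = 6 each). The expressed part of the family was uneven. Per kilobase of merged exons, which is the scale on which genes of different length can be compared, the 5 highest genes were Trim8, Trim28, Trim41, Trim35 and Trim44, and they held 49.9% ± 2.06 of all Trim counts in cKO and 48.5% ± 0.837 in WT. Trim8, a regulator of NF-kB and STAT3 signalling, stood at 47.1 ± 7.87 CPM per kb in cKO and 49.7 ± 3.41 in WT. Trim28 (KAP1), the corepressor that silences retroelements together with KRAB zinc finger proteins, stood at 50.3 ± 4.46 CPM per kb in cKO and 47.2 ± 3.17 in WT. The levels of Trim8 and Trim28 thus did not differ from each other beyond the spread between libraries. Next came Trim41 (28.3 CPM per kb in cKO and 27.3 in WT) and Trim35 (28.7 in cKO and 26.3 in WT), whose levels also lay within each other's spread, then Trim44 (22.4 in cKO and 19.3 in WT), a member without a RING finger. Trim47, Trim25, Trim27, Trim30a and Trim26 completed the 10 highest in WT, at 9.25 to 17.2 CPM per kb. Trim47 ranked 9 of 44 in cKO and 6 of 44 in WT.

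**Figure D1:**
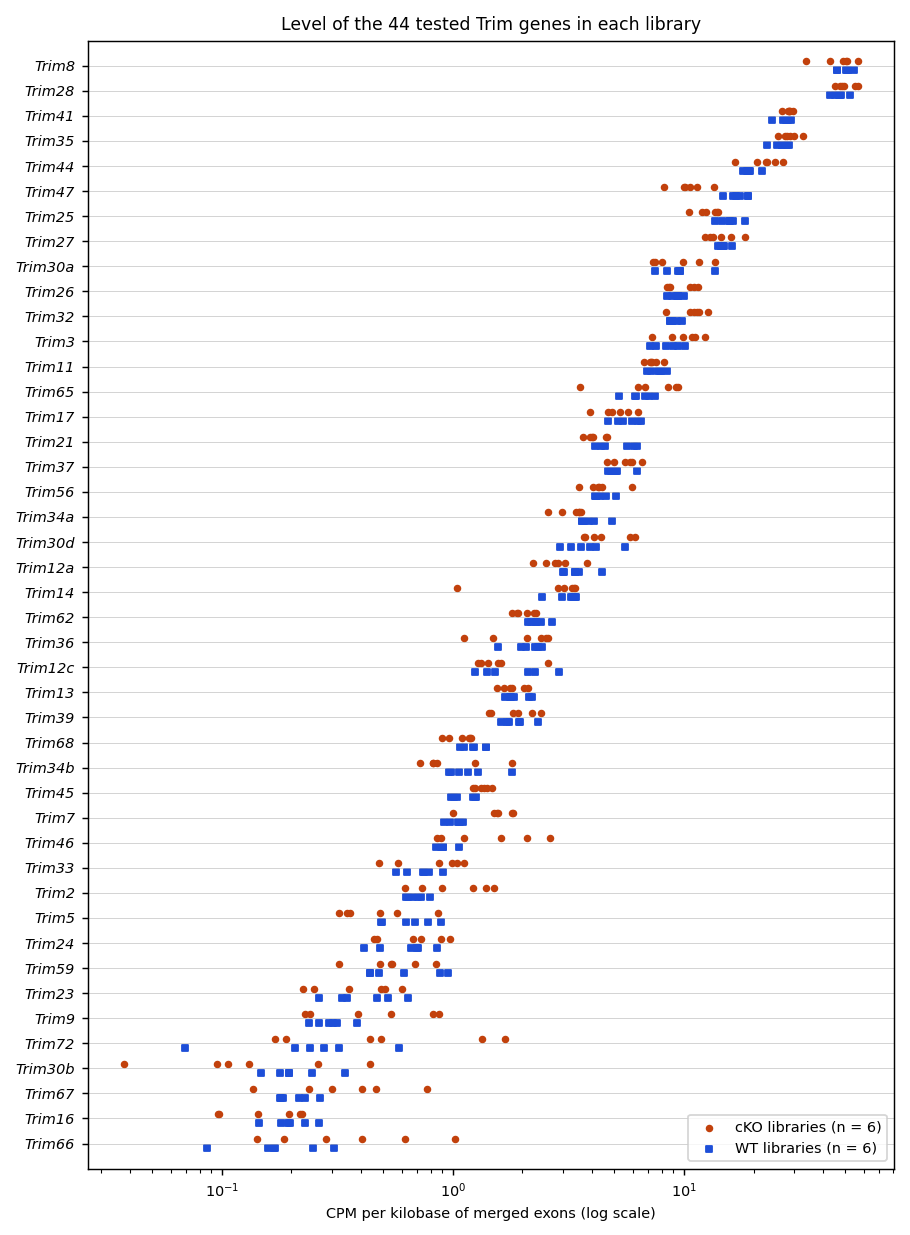
Level of the 44 tested Trim genes in CPM per kilobase of merged exons (log axis), with 1 point per library, 6 cKO libraries (circles) above 6 WT libraries (squares) in each row, ordered by the WT mean. Trim8 and Trim28 lie at the top near 50 CPM per kb in both groups, and Trim47 is the gene in the upper part whose cKO and WT points separate.

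The 23 Trim genes left untested by the filter on low counts were absent or close to the detection limit. Trim31, Trim42, Trim43b, Trim50, Trim52, Trim54 and Trim60 had 0 counts in all 12 libraries, which limits each to the 0.109 to 0.157 CPM that 3 counts stand for, counting error only. The other 16 had at most 12 counts in any library and a mean of at most 0.304 CPM. They were Trim6, Trim10, Trim15, Trim29, Trim30c, Trim38, Trim40, Trim43a, Trim43c, Trim55, Trim58, Trim63, Trim69, Trim71, Trim75 and Trim80. Several have well-known homes elsewhere: Trim63 and Trim55 (MuRF proteins) act in muscle, Trim58 in red cell precursors and Trim71 in early embryos.

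Between cKO and WT, 2 of the 44 tested Trim genes passed an adjusted p of 0.05 in edgeR's quasi-likelihood test: Trim47 was lower in cKO and Trim7 was higher. That is 4.55% of the family, against a background of 5.87% of all 15015 genes tested (2.44% higher and 3.43% lower), so the family's share was near that of all genes. At an unadjusted p under 0.05 in the same test there were 13 of the 44 tested Trim genes, against 3572 of all 15015 genes (23.8%). Of the log2 fold changes, 21 were above 0 and 23 below, with a median of −0.0035 (all genes 0.03). Under RLE scaling the median over all genes was 0.04 and 23 members were above 0. The median size of the log2 fold change was 0.21 for the family and 0.19 for all genes. Of the 42 members that did not pass, 35 had a 95% interval that stayed within a 2-fold change in either direction and 24 one within 1.5-fold, so that for the other 7 a change beyond 2-fold lay inside the interval. The count rested on single libraries: without cKO 5 it was 10 Trim genes (22.7%, against 18.6% of all genes), and without any one of cKO 1, cKO 2, cKO 4, WT 7, WT 8, WT 9, WT 11 or WT 12 it was Trim47 alone. With the marker component described below for Trim47 in the model the 2 called genes were Trim47 and Trim72 (7.37% of all genes), and without cKO 1 and cKO 2 together Trim47 alone passed (2.75%). DESeq2 called 6 Trim genes (12.3% of all genes) and limma-voom with sample weights 14 (30.9%).

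**Figure D2:**
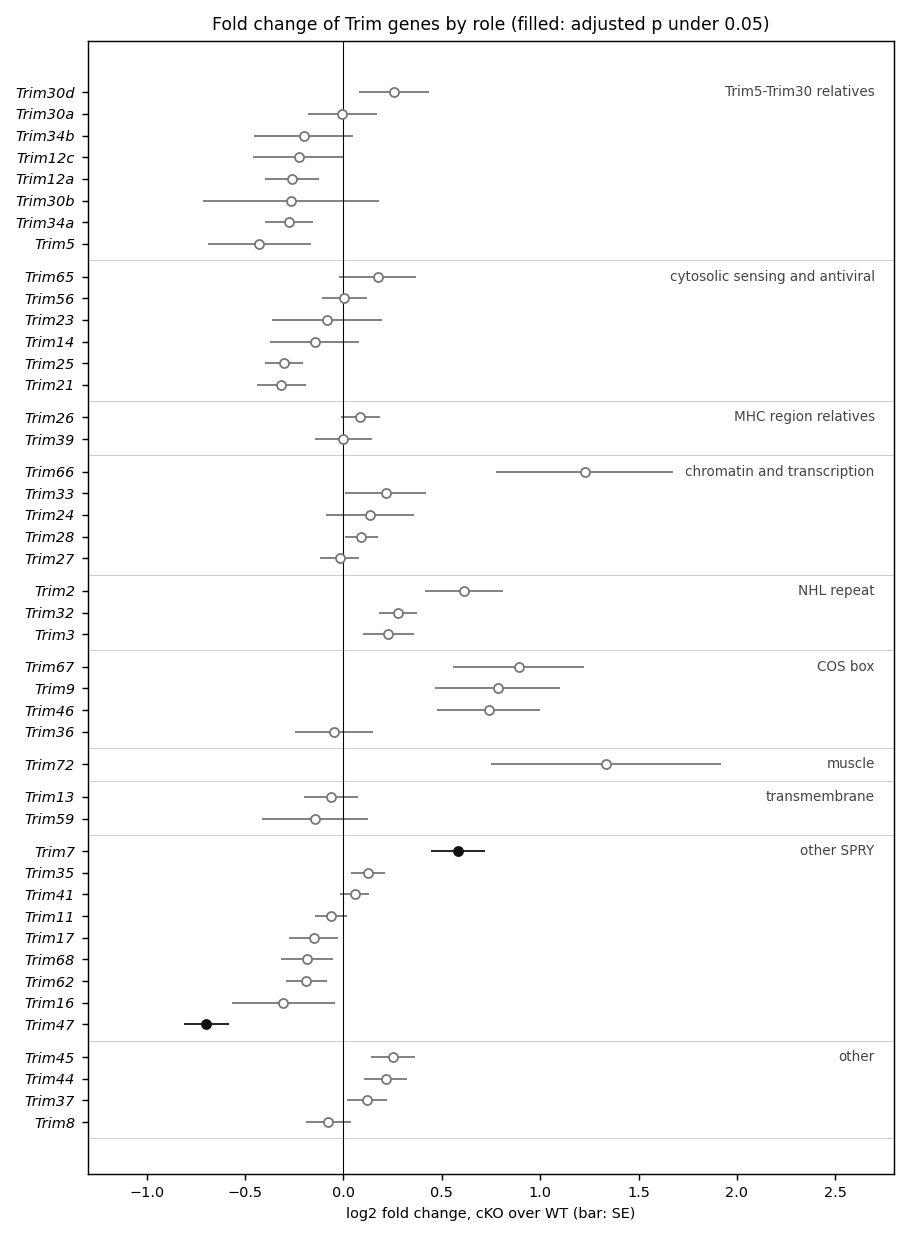
Log2 fold change (cKO over WT) of the 44 tested Trim genes with its SE, grouped by role. Filled points passed an adjusted p of 0.05, Trim47 to the left of 0 and Trim7 to the right; most open points lie within 0.5 of 0, and those beyond it to the right are Trim66, Trim2, Trim9, Trim46, Trim67 and Trim72.

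Trim47 (ENSMUSG00000020773, chr11:116105752-116127210 of GRCm38, the mm10 assembly, minus strand) encodes a RING ligase with a PRY-SPRY domain that is known in brain from endothelial cells. It had 22.4, 28.2 and 36.7 CPM (lowest, median and highest) in cKO and 40.3, 46.9 and 51.7 CPM in WT. The groups did not overlap: the highest cKO library, cKO 3, lay below the lowest WT library, WT 11. The log2 fold change was −0.70 ± 0.11 (95% interval −0.94 to −0.45, adjusted p = 0.00279, edgeR's quasi-likelihood test), so that cKO stood at 61.7% of the WT level. It passed in all 19 alternatives, with log2 fold changes between −0.78 and −0.62 and adjusted p between 2.12e-06 and 0.0129. The summed endothelial markers overlapped between the groups, with 21.0 to 110 CPM in cKO and 32.1 to 69.5 CPM in WT, and 1 of the 4 tested passed, lower in cKO. Within cKO, Trim47 was highest in cKO 3 (36.7 CPM), where the endothelial markers were also highest (110 CPM), and lowest in cKO 2 (22.4 CPM), where they were lowest (21.0 CPM). Other libraries went differently. In cKO 4 the endothelial markers were low (26.5 CPM) while Trim47 had 31.1 CPM, above its cKO median. In WT 10 they were highest among WT (69.5 CPM) while Trim47 had 44.6 CPM, below its WT median. The part of endothelial RNA in the Trim47 difference was not tested on its own. With the leading component of 44 markers of neurons, glia, endothelial and mural cells in the model, Trim47 kept a log2 fold change of −0.63 ± 0.13 (adjusted p = 0.00931). That component did not follow the endothelial markers, so the fit cannot answer for endothelial RNA. It was 1.92 in cKO 2, where those markers were lowest, and −0.0002 in cKO 3, where they were highest. A long annotated Trim47 transcript reaches into Trim65 on the same strand, and 6.58% of the 50-base stretches of Trim47 transcripts also occur in Trim65, so reads of the pair may be split by the counting. Trim65 averaged 43.1 ± 13.2 CPM in cKO and 38.2 ± 4.73 CPM in WT (log2 fold change 0.17 ± 0.19, adjusted p = 0.655), and the part of shared reads in either value was not tested.

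Trim7 (ENSMUSG00000040350, chr11:48826140-48852209, plus strand) encodes a ligase first found as a partner of glycogenin, the primer of glycogen synthesis. It had 7.60, 11.9 and 13.9 CPM in cKO (lowest, median, highest) and 6.94, 8.05 and 8.41 CPM in WT. In 5 of 6 cKO libraries it was above every WT library, at 11.5 to 13.9 CPM, while cKO 5 lay inside the WT range. Its log2 fold change was 0.58 ± 0.14 (95% interval 0.28 to 0.88, adjusted p = 0.0266 in edgeR's quasi-likelihood test), or 1.5-fold, and its direction was the same in all 19 alternatives (0.41 to 0.68). The call was less firm: it passed in 9 of the 19 (adjusted p from 0.000592 to 0.112). It was lost when any one of cKO 1, cKO 2, cKO 4, WT 7, WT 8, WT 9, WT 11 or WT 12 was dropped. It was also lost when cKO 1 and cKO 2 were dropped together (0.52, adjusted p = 0.112), and in the model that held the marker component (0.41, adjusted p = 0.0798). Without cKO 5 it was 0.68 with an adjusted p of 0.00111.

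**Figure D3:**
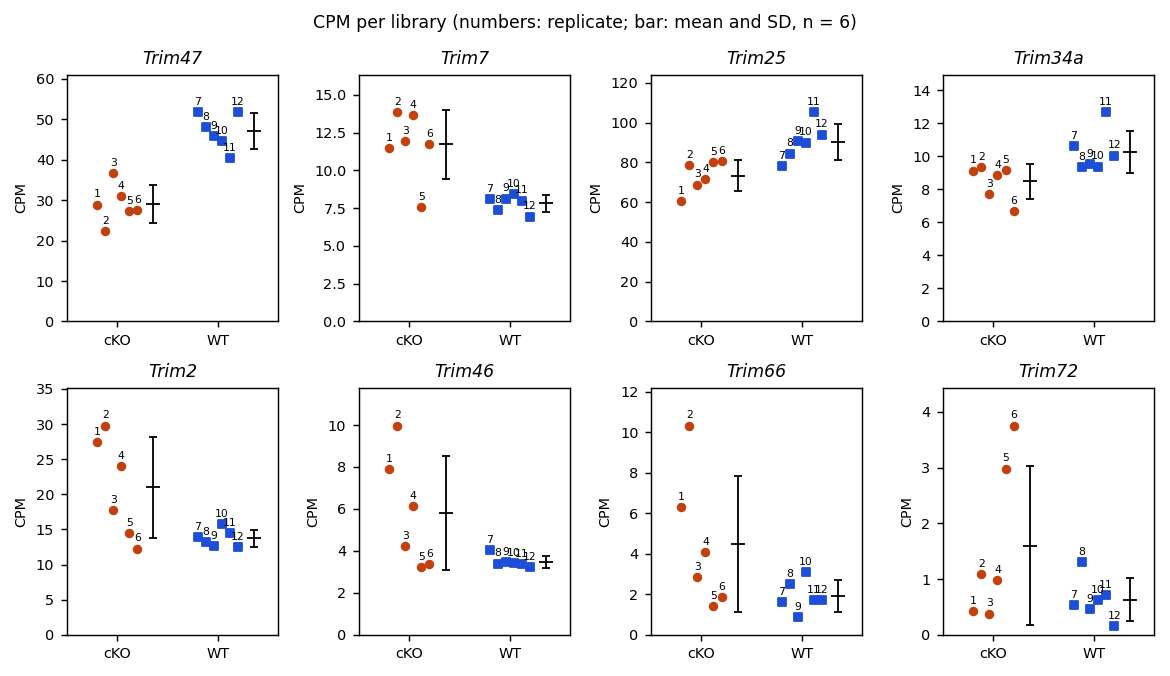
CPM per library (axes start at 0) of 8 Trim genes, with cKO libraries as circles left of WT libraries as squares, replicate numbers beside the points and the mean with its SD (n = 6). Trim47 shows 6 cKO points below all 6 WT points; Trim7 shows cKO 5 among the WT points; Trim2, Trim46 and Trim66 show cKO 1, cKO 2 and cKO 4 high; Trim72 shows cKO 5 and cKO 6 high.

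As the genes called between the groups, Trim47 and Trim7 are shown here with the 250 bases before the RefSeq transcript start (GRCm38.p6, on the gene's strand), with the GC boxes (GGGCGG on either strand, the element bound by Sp1) in capitals. The Trim47 stretch is chr11:116110236-116110485 and the Trim7 stretch chr11:48825888-48826137.
Trim47: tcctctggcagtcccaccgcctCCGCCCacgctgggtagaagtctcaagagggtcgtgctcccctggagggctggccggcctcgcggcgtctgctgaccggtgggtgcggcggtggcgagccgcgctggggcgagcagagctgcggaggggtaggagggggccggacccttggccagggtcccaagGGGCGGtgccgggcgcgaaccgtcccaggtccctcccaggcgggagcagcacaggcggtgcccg
Trim7: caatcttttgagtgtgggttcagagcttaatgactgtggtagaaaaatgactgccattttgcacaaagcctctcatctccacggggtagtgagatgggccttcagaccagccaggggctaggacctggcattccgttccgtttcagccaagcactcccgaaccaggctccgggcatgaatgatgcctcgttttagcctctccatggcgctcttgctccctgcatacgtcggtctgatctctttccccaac
The Trim47 stretch holds 2 GC boxes and this Trim7 stretch none, while a second RefSeq start of Trim7 has 2 in its own 250 bases (chr11:48837221-48837470). Over the RefSeq promoters, counted from 250 bases before to 50 bases after a start, a GC box was present for 24 of the 52 Trim genes with a promoter (46.2%) and for 38.2% of 27025 genes.

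The antiviral SPRY genes related to Trim5 and Trim30 were present in these libraries, and none of the 8 tested passed. Trim5 and its mouse copies Trim12a and Trim12c belong to the family of TRIM5, which in primates blocks incoming retroviral capsids, and Trim30a is known in mice as a brake on NF-kB signalling that is induced by Toll-like receptors. The log2 fold changes of 7 of the 8 were below 0, with a median of −0.24 (all genes 0.03). Trim34a was the member whose groups did not overlap, with 6.67, 8.99 and 9.32 CPM in cKO and 9.35, 9.79 and 12.7 CPM in WT. The highest cKO library and the lowest WT library were almost level, and under RLE scaling they overlapped. At −0.28 ± 0.12 on the log2 scale, Trim34a missed the threshold (adjusted p = 0.184 in edgeR's quasi-likelihood test). Of its 50-base stretches, 20.2% also occur on the opposite strand of Gm47248, and the part of such reads was not tested. Trim47 and Trim34a were the 2 Trim genes without overlap, both lower in cKO, against 4.13% of all genes (2.8% lower and 1.33% higher). Trim12a had 12.8, 16.2 and 22.0 CPM in cKO and 17.2, 19.5 and 25.5 CPM in WT (log2 fold change −0.26 ± 0.14, adjusted p = 0.27). Trim5 was low, with 1.19, 1.55 and 3.18 CPM in cKO and 1.81, 2.43 and 3.28 CPM in WT (−0.43 ± 0.26, adjusted p = 0.353). Without cKO 5, where Trim5 was highest among cKO, the log2 fold change was −0.67 ± 0.22 (adjusted p = 0.0512), and limma-voom with sample weights called Trim5 lower (−0.62, adjusted p = 0.0354).

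These relatives share sequence, so reads could be split between them by the counting. Of the 50-base stretches of their transcripts, 36.3% of those of Trim5, 33.0% of those of Trim12c and 56.8% of those of Trim34b also occur in another gene. The shares were lower for Trim12a (10.4%), Trim30d (7.49%) and Trim30a (5.98%). Sums over related copies avoid part of this split. Trim5, Trim12a and Trim12c together had 24.5 ± 5.51 CPM in cKO and 29.5 ± 5.52 CPM in WT, Trim30a and Trim30d together 57.2 ± 12.6 CPM in cKO and 54.6 ± 12 CPM in WT, and Trim34a and Trim34b together 10.4 ± 1.6 CPM in cKO and 12.5 ± 1.77 CPM in WT (SD, n = 6 each). In all 3 sums the groups overlapped. Within each group the copies went up and down by library: 6 of the 8 were highest among cKO in cKO 5, and 7 of the 8 were highest among WT in WT 11. The 25 genes of the type I interferon response summed to 2404 CPM in cKO 5, the most of any library, and to 639 to 1370 CPM in the other cKO libraries. In WT 11 they summed to 1440 CPM, below WT 8 and WT 9, within a WT range of 914 to 1877 CPM. The part of the interferon response in the levels of these Trim genes was not tested.

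Their promoters are shown because several of the copies carry the same interferon element. The search used the interferon-stimulated response element written GAAANNGAAA on either strand, from 250 bases before to 50 bases after each RefSeq start (GRCm38.p6). It was found for 6 of the 10 relatives, all 6 among the 8 tested, since the untested Trim6 and Trim30c had none. It was also found for 3 of the 42 other Trim genes with a promoter (Trim2, Trim21 and Trim26), and for 3.99% of 27025 genes. The related copies among the 6 are not independent cases. The windows below are on the gene's strand, with the element in capitals (TTTCNNTTTC where it lies on the opposite strand).
Trim12a: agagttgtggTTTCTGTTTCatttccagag
Trim12c: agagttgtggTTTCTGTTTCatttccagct
Trim5: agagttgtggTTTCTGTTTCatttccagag
Trim30a: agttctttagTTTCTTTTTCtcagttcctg
Trim30d: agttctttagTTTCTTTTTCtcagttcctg
Trim34a: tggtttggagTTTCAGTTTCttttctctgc
Trim21: agaggaaactGAAAGTGAAAtttggactgc
The windows lie at chr7:104315466-104315495 (Trim12a), chr7:104353359-104353388 (Trim12c), chr7:104288136-104288165 (Trim5), chr7:104465210-104465239 (Trim30a), chr7:104507871-104507900 (Trim30d), chr7:104244457-104244486 (Trim34a) and chr7:102565444-102565473 (Trim21). Those of Trim12a and Trim5 are identical, as are those of Trim30a and Trim30d. None of the genes with an element passed the test between cKO and WT. Other elements were searched in the same way: a GAS site (TTCNNNGAA) was found for 11.5% of Trim genes with a promoter and 9.55% of all genes, and a PU.1 site (GAGGAAGT) for 9.62% of Trim genes and 3.69% of all genes. The 5 Trim genes with a PU.1 site were Trim2, Trim24 and the related copies Trim5, Trim12a and Trim12c, which are not independent cases. A match describes these letters and is not evidence of binding.

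The Trim genes of the cytosolic sensing group did not pass either (0 of 6 tested), with a median log2 fold change of −0.12. Trim25, which attaches ubiquitin chains to the RNA sensor RIG-I, came closest: 60.5, 75.0 and 80.6 CPM in cKO against 78.2, 90.3 and 105 CPM in WT. Only the lowest WT library, WT 7, lay inside the cKO range. Its log2 fold change was −0.30 ± 0.10 (95% interval −0.51 to −0.09, adjusted p = 0.0797 in edgeR's quasi-likelihood test), and it passed in 3 of 19 alternatives, among them without cKO 5 (−0.33, adjusted p = 0.0327). Trim21, the cytosolic antibody receptor, had 13.6, 14.9 and 17.2 CPM in cKO and 15.2, 18.95 and 23.2 CPM in WT, and 3 WT libraries lay above the whole cKO range (−0.32 ± 0.12, adjusted p = 0.142). Trim56, known for acting on the DNA sensor pathway, was level at 40.9 ± 7.54 CPM in cKO and 40.8 ± 3.46 CPM in WT. Trim65, which acts on the RNA sensor MDA5, had 21.0 to 55.5 CPM in cKO and 30.9 to 44.3 CPM in WT. Trim14, an adaptor of the mitochondrial antiviral complex, had 4.50 CPM in cKO 5 and 12.4 to 14.6 CPM in the other cKO libraries, against 10.5 to 14.8 CPM in WT. Reads of Trim14 may be hard to tell from those of Nans and other overlapping genes, since 33.9% of its 50-base stretches occur on their opposite strand and the strand setting of the counting is not given in the sources used here. Trim23, with an ARF-like domain, was low in both groups, at 2.32 ± 0.871 CPM in cKO and 2.46 ± 0.801 CPM in WT.

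Among the chromatin and transcription members, none of 5 passed. Trim28 had 188 to 235 CPM in cKO and 178 to 218 CPM in WT, and Trim27, a RING ligase that also works with the retromer on endosomes, had 80.3 ± 12.6 CPM in cKO and 81.4 ± 3.98 CPM in WT. Trim24 and Trim33, bromodomain proteins that act with nuclear receptors and with Smad proteins, had 5.94 ± 1.79 and 8.29 ± 2.55 CPM in cKO against 5.41 ± 1.38 and 7.15 ± 1.15 CPM in WT. Trim66, a relative of Trim24 and Trim33 described mainly in germ cells, had 1.43, 3.46 and 10.3 CPM in cKO and 0.876, 1.71 and 3.09 CPM in WT. It was above every WT library in cKO 1, cKO 2 and cKO 4, where it had 4.07 to 10.3 CPM. Its log2 fold change of 1.23 ± 0.45 did not pass (adjusted p = 0.118, edgeR's quasi-likelihood test).

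The Trim genes best known from neurons shared a library pattern, which some other Trim genes also had, and none passed. Trim2, which targets neurofilament light chain, had 12.3, 20.9 and 29.8 CPM in cKO and 12.4, 13.6 and 15.7 CPM in WT (log2 fold change 0.61 ± 0.20, adjusted p = 0.0821). Libraries cKO 1 to cKO 4 were above every WT library, and cKO 5 and cKO 6 were within or below the WT range. Trim46, which bundles microtubules at the axon initial segment, had 3.22, 5.19 and 9.98 CPM in cKO and 3.21, 3.41 and 4.03 CPM in WT (0.74 ± 0.26, adjusted p = 0.108). Trim9, which guides axon branching downstream of netrin, had 3.26, 6.58 and 12.4 CPM in cKO and 3.40, 4.21 and 5.47 CPM in WT (0.78 ± 0.32, adjusted p = 0.152). Trim67, its close relative, had 1.19, 3.08 and 6.78 CPM in cKO and 1.57, 1.75 and 2.32 CPM in WT (0.89 ± 0.33, adjusted p = 0.124). For all 4 genes the highest cKO values were in cKO 1 and cKO 2, and the lowest were in cKO 5 or cKO 6. Trim36, the other tested gene with a COS box, had 5.53 to 12.8 CPM in cKO and 7.77 to 12.02 CPM in WT.

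The neuron markers, 14 of 14 tested with 0 passing and none at 0 throughout, followed the same libraries: their sum was 843 CPM in cKO 2, then 663 CPM in cKO 1, with 514 CPM for cKO 4 and 315 CPM for cKO 3, and it was lowest with 225 CPM in cKO 5 and 239 CPM in cKO 6, against 210 to 330 CPM in WT. Some other lists varied in part along similar lines. The microglia markers, of which 2 of 11 passed as higher in cKO, summed to 16000, 19400, 13800 and 20200 CPM in cKO 1 to cKO 4, and to 9260 CPM in cKO 5 and 15300 CPM in cKO 6. The ependymal markers summed to 9.4 CPM in cKO 1, 14.2 CPM in cKO 2 and 9.66 CPM in cKO 4, and to 4.35 to 6.07 CPM in the other cKO libraries, against 4.94 to 6.83 CPM in WT. The astrocyte markers were highest in cKO 1 and cKO 2 (519 and 529 CPM), against 353 to 429 CPM in WT. Other lists took a different course. Among cKO libraries the endothelial markers were lowest in cKO 2 (21.0 CPM) and highest in cKO 3 (110 CPM). The mural and fibroblast markers were lowest in cKO 4 (58.4 CPM) and highest in cKO 6 (262 CPM). With the marker component in the model, the log2 fold changes became 0.12 ± 0.09 for Trim2, 0.08 ± 0.15 for Trim46, −0.06 ± 0.17 for Trim9, 0.10 ± 0.24 for Trim67 and 0.08 ± 0.30 for Trim66, with adjusted p between 0.456 and 0.908. Without cKO 1 and cKO 2 they were 0.22 (Trim9) to 0.42 (Trim66), with adjusted p between 0.387 and 0.698. Without cKO 5, Trim2 (0.70, adjusted p = 0.0242), Trim46 (0.86, 0.0275), Trim66 (1.41, 0.0337), Trim67 (1.07, 0.0196) and Trim9 (0.93, 0.0369) passed, where the second value in each bracket is the adjusted p. The COS box genes as a group had a median log2 fold change of 0.76 over 4 tested members (all genes 0.03). Trim32, an NHL ligase mutated in a muscular dystrophy, followed the pattern in part, with 26.9, 36.3 and 41.0 CPM in cKO and 28.0, 28.7 and 31.6 CPM in WT. All cKO libraries but cKO 5 were above every WT library (log2 fold change 0.28 ± 0.10, adjusted p = 0.105). With the marker component it was 0.16 ± 0.09 (adjusted p = 0.34), and without cKO 5 it was 0.34 (adjusted p = 0.00839). Trim3, a brain NHL ligase, had 33.2, 47.4 and 56.1 CPM in cKO and 32.7, 39.5 and 46.1 CPM in WT (0.23 ± 0.13, adjusted p = 0.314).

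**Figure D4:**
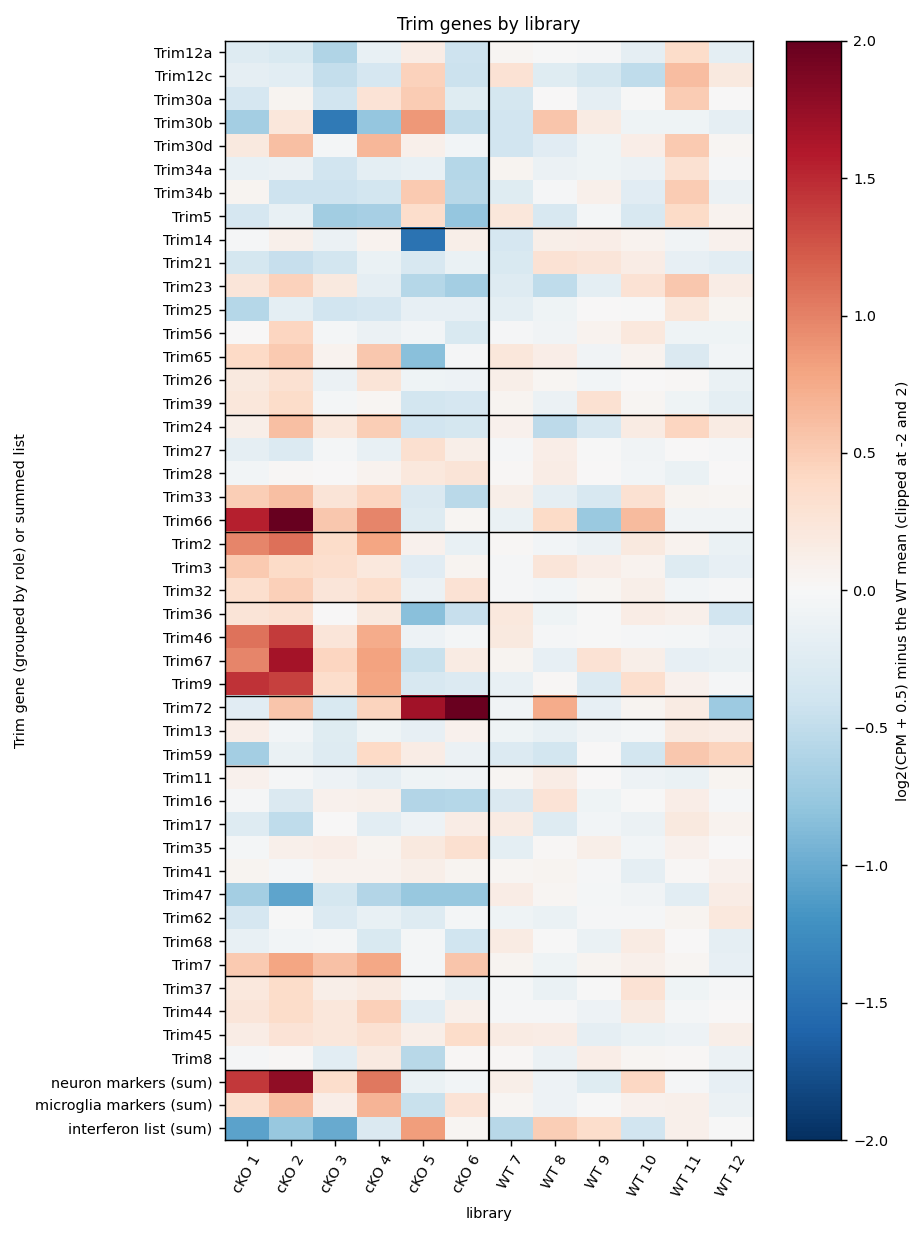
Each tested Trim gene in each library as log2(CPM + 0.5) minus its WT mean (red above, blue below, colours clipped at −2 and 2), with cKO libraries left of WT libraries and genes grouped by role; the bottom 3 rows are the summed neuron markers, microglia markers and interferon genes. Trim66, Trim2, Trim46, Trim67 and Trim9 are red in cKO 1, cKO 2 and cKO 4 like the neuron markers, Trim47 is blue in all 6 cKO libraries, and Trim72 is red in cKO 5 and cKO 6.

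Trim72 (MG53), a muscle protein known for membrane repair, gave a different library pattern. It had 0.380, 1.04 and 3.76 CPM in cKO and 0.155, 0.577 and 1.31 CPM in WT, from 3 to 76 counts per library. The 2 high libraries were cKO 5 (2.98 CPM) and cKO 6 (3.76 CPM), and the other 4 cKO libraries lay inside the WT range. The log2 fold change of 1.33 ± 0.58 did not pass (adjusted p = 0.183), while with the marker component in the model it was 1.84 ± 0.50 (adjusted p = 0.0416, edgeR's quasi-likelihood test). That was the 1 of its 18 alternatives in which it passed. The other muscle members were too low to pass the filter on low counts. Trim54 was at 0 and Trim63 had at most 1 count in any library. Trim55 had 2 counts in cKO 6 and 0 in the other cKO libraries, against 0 to 6 counts in WT. An antisense gene covers 23.8% of the 50-base stretches of Trim72, so its reads are uncertain without the strand setting.

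The remaining members showed small differences. Trim44 had 93.6, 128 and 152 CPM in cKO and 102, 107 and 123 CPM in WT (log2 fold change 0.21 ± 0.11, adjusted p = 0.252), with cKO 5 the lowest of all 12 libraries. Without cKO 5 it passed, at 0.29 with an adjusted p of 0.0321. Trim45 had 7.32, 8.09 and 8.85 CPM in cKO and 5.87, 6.77 and 7.57 CPM in WT (0.25 ± 0.11, adjusted p = 0.188, edgeR's quasi-likelihood test). Trim37, a ligase known for limiting the duplication of centrioles, had 40.4 ± 5.09 CPM in cKO and 37.2 ± 4.13 CPM in WT. Trim13 and Trim59 are membrane-anchored ligases of the endoplasmic reticulum. Trim13 had 3.004 ± 0.354 CPM in cKO and 3.13 ± 0.349 CPM in WT, and 14.2% of its 50-base stretches also occur in Gm9359. Trim59 had 1.91 ± 0.599 CPM in cKO and 2.12 ± 0.769 CPM in WT. Trim26 and Trim39, encoded beside the MHC class I genes on chromosome 17, had 67.4 ± 9.48 and 13.6 ± 2.84 CPM in cKO against 63.5 ± 3.74 and 13.6 ± 1.85 CPM in WT. Of the SPRY members other than Trim47 and Trim7, Trim11 had 26.3 ± 1.74 CPM in cKO and 27.5 ± 1.97 CPM in WT. Trim17 had 19.2 ± 3.11 CPM in cKO and 21.3 ± 2.61 CPM in WT. Of its 50-base stretches, 17.7% also occur in other genes, Hist3h2a among them, and the part of shared reads was not tested. Trim41 had 99.5 ± 3.36 CPM in cKO and 95.7 ± 6.21 CPM in WT, and Trim35 had 132 ± 11.4 CPM in cKO and 121 ± 9.44 CPM in WT. Trim62 had 10.2 ± 1.004 CPM in cKO and 11.7 ± 1.03 CPM in WT, and Trim68 had 3.78 ± 0.450 CPM in cKO and 4.30 ± 0.476 CPM in WT. The RING-less Trim16 had 0.741 ± 0.266 CPM in cKO and 0.919 ± 0.187 CPM in WT.

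The spread between libraries was wider in cKO. The SD of the log2 level was larger in cKO for 38 of the 44 tested Trim genes (86.4%), and for 81.4% of all genes, so the family's share was near that of all genes. Its median over Trim genes was 0.282 in cKO and 0.178 in WT. The widest within cKO were Trim72 (0.953), Trim66 (0.939) and Trim30b (0.807). Trim30b had 0.285, 0.894 and 3.30 CPM in cKO and 1.11, 1.47 and 2.56 CPM in WT, with cKO 5 above and 4 cKO libraries below the whole WT range.

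**Figure D5:**
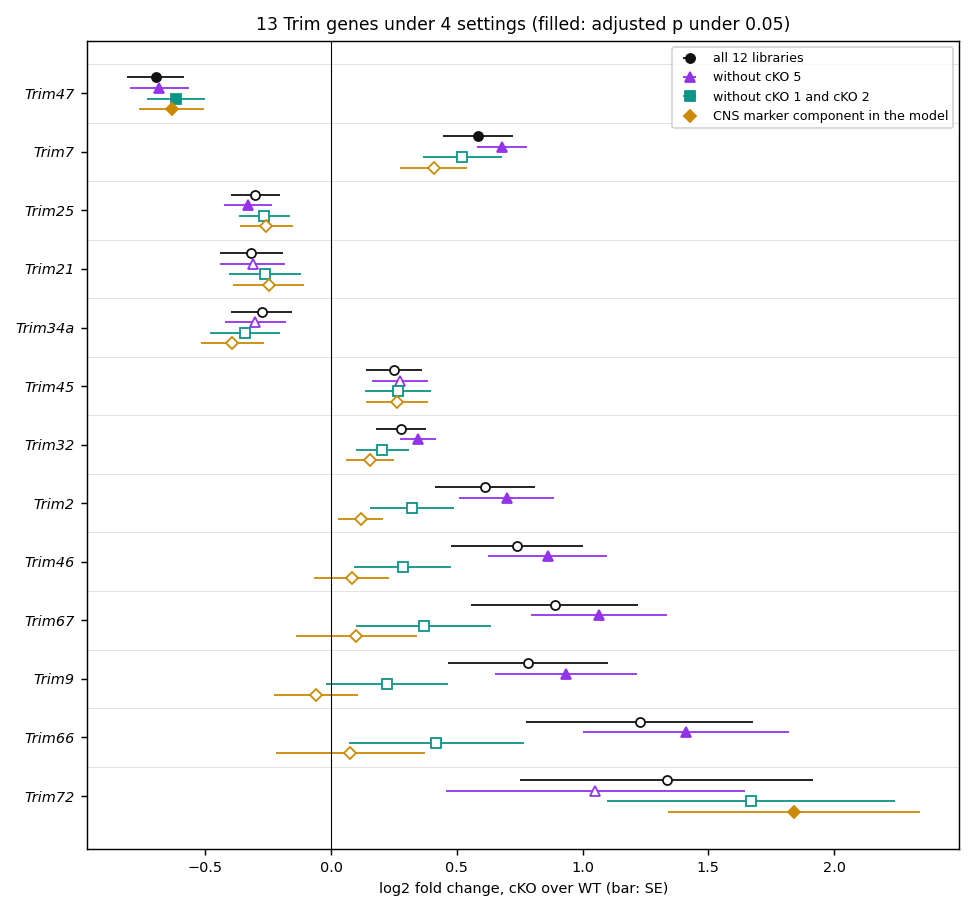
Log2 fold change (cKO over WT) with its SE of the 13 Trim genes with an unadjusted p under 0.05, each from 4 fits: all 12 libraries, cKO 5 dropped, cKO 1 and cKO 2 dropped, or the marker component added to the model (top to bottom within a gene; filled where the adjusted p was under 0.05). Trim47 stays near −0.7 and filled in all 4 fits, while Trim2, Trim46, Trim67, Trim9 and Trim66 lie near 0 with the marker component.

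Genes that work with TRIM proteins were looked at from lists of their own. Among 19 E2 enzymes, which hand ubiquitin to RING ligases, Ube2n and Ube2e2 rose and none fell (all genes 2.44% higher and 3.43% lower), with a median log2 fold change of 0.03. Ube2n, the E2 that builds the lysine-63-linked chains used in innate immune signalling, had 17.4 ± 1.72 CPM in cKO and 13.03 ± 1.002 CPM in WT (SD, n = 6 each), and every cKO library was above every WT library. Its log2 fold change was 0.42 ± 0.10 (adjusted p = 0.0219, edgeR's quasi-likelihood test). Ube2e2 had 8.89 to 18.98 CPM in cKO and 5.93 to 10.2 CPM in WT (0.72 ± 0.19, adjusted p = 0.04). Both kept their direction in all 19 alternatives, and Ube2n passed in 12 and Ube2e2 in 10. Ube2n was lost without cKO 4, WT 7, WT 8, WT 9 or WT 12, and Ube2e2 without cKO 1, cKO 3, WT 7, WT 8, WT 10, WT 11 or WT 12. None of the 14 tested RNA and DNA sensing genes (median −0.18), of the 14 partners of TRIM28, TRIM24 and TRIM33 (median 0.09) or of the 3 tested TRIM genes with other symbols passed. Those 3 were Pml (43.5 ± 6.05 CPM in cKO and 52.4 ± 10.7 CPM in WT), Mid1 (2.92 ± 1.10 CPM in cKO and 1.999 ± 0.779 CPM in WT) and Mid2 (0.804 ± 0.319 CPM in cKO and 0.503 ± 0.188 CPM in WT). Of the 25 type I interferon response genes, 4 fell and none rose, against 3.43% lower and 2.44% higher among all genes (median −0.45): Oas3, Oas2, Cmpk2 and Isg20. With the marker component in the model none of the 4 passed (adjusted p 0.0806 to 0.0949), at log2 fold changes of −1.96 for Oas3, −1.45 for Oas2, −0.72 for Cmpk2 and −0.71 for Isg20; over all alternatives the 4 kept their direction. With single libraries left out, Oas3 passed in all 12 fits, Oas2 in 6, Cmpk2 in 5 and Isg20 in 4. Oas3, the sensor of double-stranded RNA, had 1.42 to 8.30 CPM in cKO and 8.77 to 25.7 CPM in WT. Together 6 of the 75 tested genes of these lists passed (8%, against 5.87% of all genes). The count was 24 of 75 without cKO 5 (32%, against 18.6% of all genes) and 1 to 3 without cKO 1, cKO 2, cKO 4, WT 7, WT 8, WT 9, WT 11 or WT 12.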

How the data were processed

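The authors deposited raw read counts per Ensembl gene, 39017 identifiers in 12 columns. Per the submitters' processing notes, bcl2fastq 2.17, FastQC, Trimmomatic and the build mm10 were used; for aligner, counter, strand setting and annotation release, nothing is given in the sources used here. A stranded mRNA kit was used, per the labels. Whether every library is a different mouse is not stated, so the p-values cover only how much these libraries vary, which may be technical.

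Symbols, coordinates and exon lengths came from GENCODE M21 (GRCm38), which named 37693 identifiers. Genes were filtered with filterByExpr defaults (15015 left), scaled by TMM and tested by the robust quasi-likelihood method of edgeR 4.0.16 (R 4.3.3), Benjamini-Hochberg adjusted over all genes, threshold 0.05. Fold changes are cKO over WT; SEs were obtained as |log2 fold change|/√F. The marker component is the first principal component of log2 CPM (prior count 2) of 44 markers of neurons, glia, endothelial and mural cells (56.4% of their variance). It was added as a covariate in 1 alternative. The 18 others were RLE scaling, no filter, a mean of at least 5 CPM, cKO 1 and cKO 2 left out together, each library left out in turn, DESeq2 1.42.0, and limma 3.58.1 voom with sample weights. Floors of 3 counts cover counting error only, since reads are not independent molecules. Promoters came from RefSeq tables of GRCm38.p6, which held 52 of the 67 genes. Named genes were those called or without overlap, the 10 highest per kilobase in WT, those of smallest p, largest fold change or widest cKO spread, and those at 0; others are given to complete the family. The members and lists were chosen with earlier results of these data known.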

Additional observations from a re-analysis of the deposited data

Results flagged for a closer look

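In 8 of 88 groups of 6 libraries, 1 library of a Trim gene stood farther from the other 5 than Dixon's 95% limit allows; chance gives about 1 in 20 groups. In cKO 5, Trim14 had 4.50 CPM, below 12.4 to 14.6 CPM in the other cKO libraries, and Trim12c had 9.67 CPM, above 4.79 to 6.02 CPM. In cKO 2, Trim56 had 55.2 CPM, above 32.7 to 40.9 CPM. In WT 11, Trim12a had 25.5 CPM and Trim30a 56.1 CPM, above 17.2 to 20.2 and 30.7 to 39.6 CPM in the other WT libraries. In WT 10, Trim37 had 45.3 CPM and Trim44 123 CPM, above 33.7 to 37.0 and 102 to 109 CPM. In WT 7, Trim46 had 4.03 CPM, above 3.21 to 3.45 CPM.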

How the results depend on the processing

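Of the 2 called Trim genes, Trim47 passed in all 19 alternatives and Trim7 in 9. The count of called Trim genes was 1 (Trim47) without cKO 1 and cKO 2 together, 1 to 10 with single libraries left out (10 without cKO 5), 6 with DESeq2 and 14 with limma-voom and sample weights, which gave cKO 5 the lowest weight (0.149). Over all genes the count was 882, and it was 416 without cKO 1 and cKO 2 together, 460 (without WT 9) to 2818 (without cKO 5) with single libraries left out, 1843 with DESeq2 and 4638 with limma-voom, which is 2.75%, 3.03% to 18.6%, 12.3% and 30.9% of the genes tested. For the related lists the count of 6 became 3 with the marker component, 1 without cKO 1 and cKO 2, 1 to 24 with single libraries left out and 30 with limma-voom. The count of Trim genes without overlap became 1 with RLE scaling. With the marker component, Trim9 turned to −0.061 (adjusted p = 0.867) and Trim65 to −0.19 (adjusted p = 0.533); the cause of these moves was not tested. Of the 26 members without a fold change in the text, 14 changed sign in at least 1 alternative. The 23 genes that the filter left untested had at most 12 counts in any library. With no filter on low counts, 60 Trim genes were tested, and Trim47 and Trim7 alone passed. No paired analysis was possible because the groups share no replicate number.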
